A study of Heterocephalus glaber and Mus musculus with 9 samples.

Results

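The spleens of 3 naked mole-rats (Heterocephalus glaber, NM-R) whose spleen was small, called ssNM-R, were compared with the spleens of 3 mice across all 12946 genes of the RNA sequencing table. These 6 spleens are part of a series of 9; the other 3 came from NM-Rs with an enlarged spleen and entered no comparison here. The mice were C57Bl/6N males aged 2 months, kept at room temperature. The ssNM-R (numbers 2, 3 and 6 in the labels) were healthy non-breeding males aged 30, 26 and 23 months, kept warm and humid as this subterranean rodent requires. The labels call the mice WT and give no treatment for any of these animals. Each library was 1 spleen of 1 animal, and 10441982 to 11180912 reads per mouse library and 7815326 to 18219644 per ssNM-R library fell on the genes of the table. Values are normalized counts, listed in the order mouse 1, 2, 3 and ssNM-R 2, 3, 6. Species, age, housing temperature, way of killing and the genome to which the reads were aligned all changed together between the groups, so their shares in any difference cannot be told apart.

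The spleen filters blood and houses lymphocytes. Its white pulp holds B cell follicles and T cell zones, which chemokines and their receptors keep in place. Its red pulp holds macrophages that take up old red cells and recycle their iron, and in rodents it can also make blood, so that erythroblasts, megakaryocytes, granulocyte precursors and stem cells are found there. NM-Rs are long-lived, live underground in colonies and tolerate low oxygen, and for these reasons the blood-forming, immune, hyaluronan, antioxidant and hypoxia genes were described list by list.

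Differences between the groups were the rule. With limma on log2(normalized count + 1) and Benjamini-Hochberg adjustment over all genes, 9743 genes (75.3%) had an adjusted p under 0.05, of which 4894 (37.8%) were higher and 4849 (37.5%) lower in ssNM-R. When a difference of more than 1 log2 unit was required in the test itself, 4634 genes (35.8%) passed, of which 2275 (17.6%) were higher and 2359 (18.2%) lower. The groups did not overlap for 10215 genes (78.9%): all 3 ssNM-R spleens lay above all 3 mice for 5137 (39.7%) and below them for 5078 (39.2%). Over all genes, the log2 fold change had a median of 0.02, and its absolute size a median of 1.11. By comparison, the median SD over replicate spleens was 0.15 log2 units in mice and 0.23 in ssNM-R. The counts of higher and lower genes in each list below are therefore to be set against 37.8% and 37.5%, and not against 0. For every gene named below with an adjusted p under 0.05 the 3 ssNM-R did not overlap the 3 mice.

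Both groups carried the markers of spleen. Tlx1, the homeobox factor needed for a spleen to form, had 926, 665 and 647 in mice and 969.5, 859 and 864 in ssNM-R, and Nkx2-3, another factor of spleen development, had 359, 328 and 293 in mice and 187, 213 and 316 in ssNM-R. The groups overlapped for each of these 2 genes, although Tlx1 was called higher without mouse 1 (0.45) and Nkx2-3 lower without ssNM-R 6 (-0.70). The chemokine Cxcl12, made by stromal cells, had 13122, 12338 and 9819 in mice and 12006, 12824 and 10840.4 in ssNM-R (log2 fold change 0.02 ± 0.15, adjusted p = 0.89).

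Some libraries stood apart within their group. Mouse 1 was the lowest mouse for 28 of 29 erythroid genes, 24 of 27 cell cycle genes and 11 of 15 haem synthesis genes, and also for 34 of 35 cytosolic ribosomal protein, 42 of 48 respiratory chain, 22 of 24 proteasome, 47 of 61 mitochondrial ribosomal protein and 15 of 19 antioxidant genes, where 33.96% of all genes were lowest in this mouse, ties not counted. The summed erythroid level was 42752, 95715 and 119275 in mice and 430186, 337863 and 297803 in ssNM-R. In ssNM-R 6 liver markers were high: the sum over 13 of them was 156, 362 and 206 in mice and 475, 691 and 3984 in ssNM-R. The sum over 8 mesothelial markers was 886, 854 and 605 in mice and 820.5, 1555 and 2801 in ssNM-R, again highest in ssNM-R 6. Counts of these lists are therefore given with and without mouse 1, and the part of liver or mesothelial RNA in other results was not tested.

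**Figure D1:**
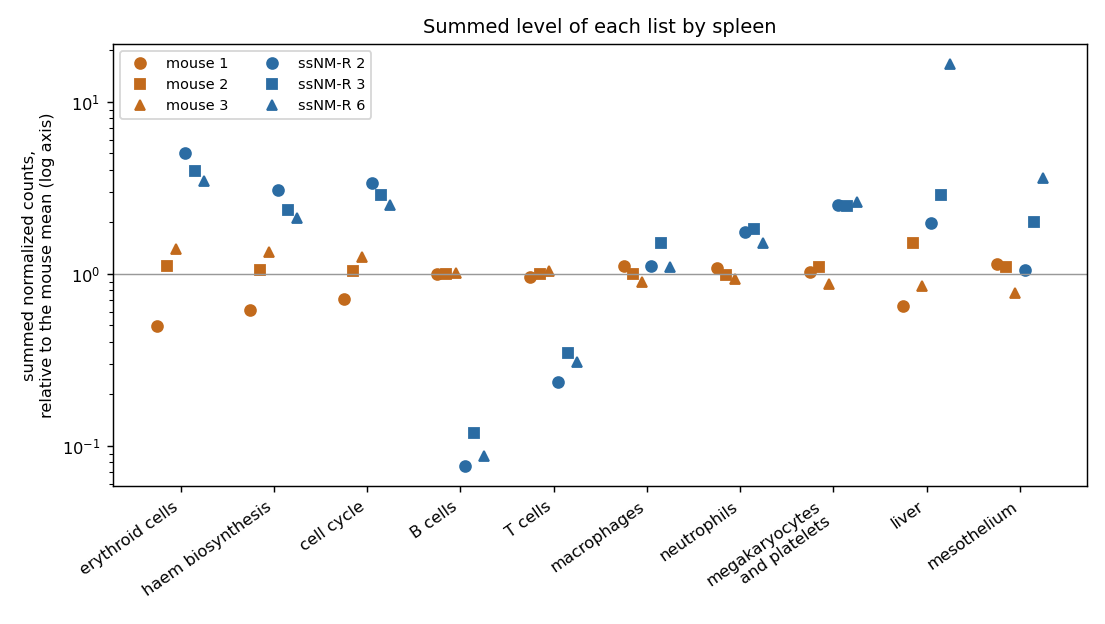
Summed normalized counts of 10 gene lists in each spleen, divided by the mean of the 3 mice (log axis; orange, mice; blue, ssNM-R; 1 symbol per animal). Mouse 1 lies below the other mice for the erythroid, haem and cell cycle lists, the B and T cell sums are separated between species, and ssNM-R 6 has the highest liver sum.

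Genes of B cells were lower throughout. All 16 B cell genes in the table were lower in ssNM-R, 15 of them by more than 1 log2 unit, with a median log2 fold change of -3.74. Their summed level was 75664, 75227 and 76418 in mice and 5752, 8928 and 6636 in ssNM-R, so mice had 10.7 times the ssNM-R mean. In a bulk sample, fewer cells of a type and less RNA per cell cannot be told apart.

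Pax5, the factor that commits cells to the B lineage, had 1797, 1609.8 and 1479 in mice and 19.1, 37.5 and 20.2 in ssNM-R (log2 fold change -5.996 ± 0.26, adjusted p = 1.81e-06; limma, SE, n = 3 spleens per group here and below). The antigen receptor chain Cd79a had 8441, 9254 and 9912 in mice and 511, 898 and 696 in ssNM-R (-3.75 ± 0.20, adjusted p = 3.99e-06). No ssNM-R spleen came near the lowest mouse for these genes, and ssNM-R 3 was the highest of its group in each. The complement receptor Cr2, found on follicular dendritic cells too, had 7614, 7289 and 6895 in mice and 457, 999.9 and 589.6 in ssNM-R (-3.49 ± 0.26, adjusted p = 1.78e-05). The smallest difference in the list was that of the kinase Btk, which myeloid cells also use, with 1967, 1958 and 1938 in mice and 1314, 1420.2 and 1309 in ssNM-R (-0.54 ± 0.08, adjusted p = 0.000586).

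Plasma cells secrete antibody. Of 9 plasma cell genes, 6 were lower, 1 was higher and 2 did not pass the test. Jchain, which joins the units of IgA and IgM, had 30669.9, 27683 and 25608 in mice and 3002, 12446 and 2622 in ssNM-R (-2.60 ± 0.55, adjusted p = 0.00357). Here ssNM-R 3 stood well above the other NM-Rs, though still below every mouse. The same animal was the highest ssNM-R for the plasma cell genes Derl3 (38.3, 120.1 and 53.1 in ssNM-R) and Tnfrsf17 (16.4, 61.6 and 19.0). Xbp1, which drives the secretory programme, had 3206, 2879 and 2744 in mice and 1793, 2402 and 3445 in ssNM-R and overlapped between the groups (called lower without ssNM-R 6, at -0.50). The chaperone Fkbp11 was the only member that was higher, with 57.2, 54.3 and 47.2 in mice and 223, 287 and 274 in ssNM-R (2.28 ± 0.17, adjusted p = 1.85e-05).

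All 19 T cell genes were lower, 14 of them by more than 1 log2 unit, with a median of -2.05. The difference was not even over the list. The chains Cd3e, Cd3d and Cd3g of the T cell receptor complex were among the 4 genes that differed least: Cd3e had 907, 925 and 1069 in mice and 405, 626 and 569 in ssNM-R (-0.88 ± 0.17, adjusted p = 0.00251), and Cd3d and Cd3g had log2 fold changes of -0.69 and -1.10. The zeta chain of the same complex, Cd247, differed more (841, 909 and 893 in mice and 76.6, 132 and 120.1 in ssNM-R, -3.03 ± 0.21, adjusted p = 1.15e-05). Cd4, also found on some myeloid cells, had 2328, 2165 and 2324 in mice and 1383, 2025 and 1515 in ssNM-R (-0.49 ± 0.15, adjusted p = 0.0181), a call that was lost without mouse 1, mouse 3, ssNM-R 2 or ssNM-R 6 (log2 fold changes -0.47, -0.47, -0.37 and -0.44). The co-stimulatory receptors were far lower. Cd28 had 952, 912 and 949 in mice and 15.04, 27.0 and 14.5 in ssNM-R (-5.62 ± 0.25, adjusted p = 1.90e-06), Icos had a log2 fold change of -5.11 and Ctla4, the inhibitory receptor of the same family, -5.18. The kinase Lck, which relays the T cell receptor signal, lay between, with 2621, 2686 and 2836 in mice and 362, 671 and 483 in ssNM-R (-2.47 ± 0.21, adjusted p = 3.09e-05).

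In the list of cytotoxic lymphocytes, 9 of 10 genes were lower and 1 was higher, with a median of -2.98. Nkg7, a granule protein of killer cells, had 519.8, 589 and 599 in mice and 32.8, 84.1 and 79.0 in ssNM-R (-3.22 ± 0.35, adjusted p = 0.000106). Ccl5, a chemokine released by T and NK cells, had 1663, 2112 and 1953 in mice and 17.8, 63.1 and 19.0 in ssNM-R (-6.04 ± 0.45, adjusted p = 1.75e-05). The transcription factor Eomes had 294, 319.6 and 296 in mice and 12.3, 27.0 and 14.5 in ssNM-R (-4.08 ± 0.29, adjusted p = 1.49e-05). The exception was Cd244, a receptor of NK cells and other leukocytes, with 604, 517 and 553 in mice and 1057, 1528 and 1279.7 in ssNM-R (1.19 ± 0.15, adjusted p = 0.000218). Ncr1, Klrb1c and Gzmb were not analysed here.

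Dendritic cells present antigen to T cells, and all 10 of their genes were lower, with a median of -2.75. Itgax, the integrin chain CD11c, had 2933, 2409.8 and 2548 in mice and 57.4, 129 and 109 in ssNM-R (-4.80 ± 0.28, adjusted p = 6.36e-06). Xcr1, a receptor of the subset that cross-presents antigen, had 656, 440.2 and 656 in mice and 15.04, 34.5 and 5.69 in ssNM-R (-5.20 ± 0.56, adjusted p = 0.000107). Clec9a, a receptor of the same subset for dead cells, had 929, 663 and 738 in mice and 68.4, 55.5 and 68.9 in ssNM-R (-3.57 ± 0.17, adjusted p = 2.70e-06). In ssNM-R 6 Xcr1 was lowest of all. Flt3, the growth factor receptor of dendritic cell precursors, differed less, with 1239, 903 and 928 in mice and 376, 679 and 381 in ssNM-R (-1.14 ± 0.25, adjusted p = 0.00431).

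In the list of antigen presentation genes, 9 of 10 were lower, none was higher, and the median was -2.72. Cd74, the invariant chain that escorts MHC class II, had 69868, 75119.6 and 81211 in mice and 11152, 13154 and 10670.4 in ssNM-R (-2.70 ± 0.15, adjusted p = 5.44e-06). Ciita, the master regulator of class II genes, had 5058, 4350.1 and 4269 in mice and 592, 815 and 449.9 in ssNM-R (-2.92 ± 0.21, adjusted p = 1.41e-05), and Nlrc5, its counterpart for class I, had 3546, 2988 and 3276 in mice and 263, 246 and 169 in ssNM-R (-3.87 ± 0.17, adjusted p = 2.11e-06). The immunoproteasome subunit Psmb8 had 3581, 3426 and 3674 in mice and 257, 353 and 264 in ssNM-R (-3.62 ± 0.14, adjusted p = 1.05e-06). These 4 genes showed no overlap between the groups, while Rfxap, a subunit of the factor that binds class II promoters, did overlap (207, 261 and 255.9 in mice and 268, 257 and 305 in ssNM-R). The classical mouse class II chains (H2-Aa, H2-Ab1 and H2-Eb1) were not analysed here. The row under the human symbol Hla-Dra, for a class II alpha chain, had 0, 0 and 0 in mice and 3285, 4430.3 and 3107 in ssNM-R. Since that row and the mouse class II chains carry different symbols, they cannot be compared.

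Among the 23 chemokine, receptor and survival genes of the white pulp, 16 were lower, 2 were higher and 5 did not pass, with a median of -2.40. Cxcl13, which draws B cells into follicles, had 2199, 2138 and 2128 in mice and 75.2, 159 and 200.3 in ssNM-R (-4.00 ± 0.33, adjusted p = 2.72e-05), and its receptor Cxcr5 had 2307, 2609 and 2462 in mice and 41.0, 51.0 and 40.4 in ssNM-R (-5.77 ± 0.13, adjusted p = 1.48e-07). Ccr7, which guides cells to the T zone, had 1766, 1973 and 1852 in mice and 171, 312 and 226 in ssNM-R (-3.01 ± 0.21, adjusted p = 1.18e-05). Its ligand Ccl19 was low in every spleen, with 31.1, 28.3 and 22.0 in mice and 1.37, 4.50 and 1.90 in ssNM-R, and 100% of the 32-base windows of its mouse exons occur again elsewhere in mm9. Tnfsf13b, the B cell survival factor BAFF, had 172, 154 and 136 in mice and 12.3, 12.0 and 9.48 in ssNM-R (-3.66 ± 0.22, adjusted p = 6.44e-06). In contrast, Ltbr, the stromal receptor for lymphotoxin, had 521, 511 and 500.2 in mice and 1009, 1096 and 1446 in ssNM-R (1.19 ± 0.14, adjusted p = 0.000179), and the stromal factor Nr5a1 had 559, 409 and 403 in mice and 857, 961 and 897 in ssNM-R (1.00 ± 0.15, adjusted p = 0.000522). Lta, a ligand of the lymphotoxin pathway, had 215, 227 and 238 in mice and 5.47, 10.5 and 10.1 in ssNM-R (-4.60 ± 0.27, adjusted p = 6.59e-06). Lta and Ltbr thus lay on opposite sides of 0. The receptors Tnfrsf1a and Tnfrsf1b had log2 fold changes of -0.35 and -1.65, and Ltb was not analysed here.

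**Figure D2:**
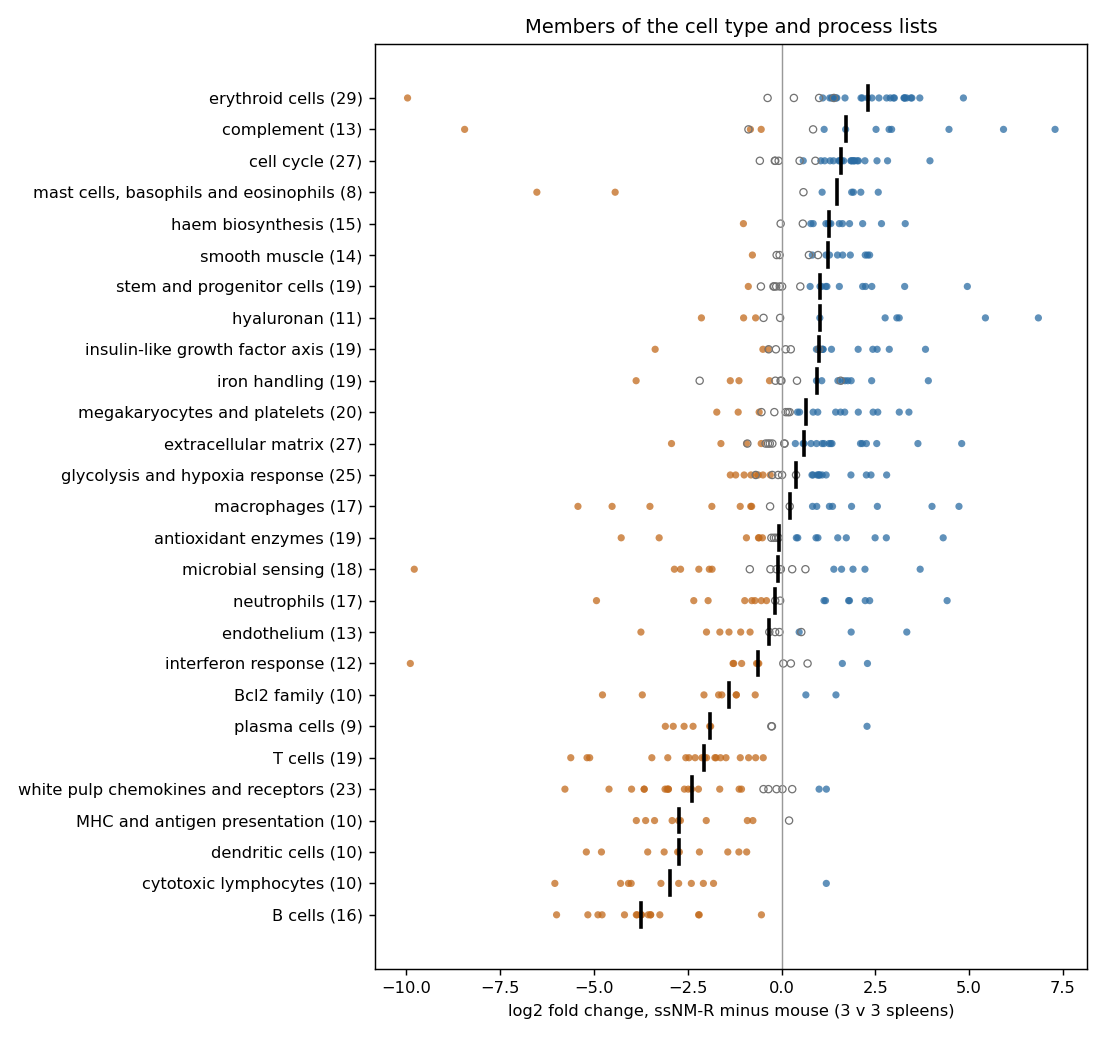
Log2 fold change (ssNM-R minus mouse) of every member of 27 gene lists, with the number of members in brackets; filled points passed limma at an adjusted p under 0.05 (blue, higher; orange, lower in ssNM-R), open points did not, and the black bar is the median. B cell, cytotoxic, dendritic cell and T cell members lie to the left of 0, except Cd244, and most erythroid and cell cycle members lie to the right.

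Genes of red cell precursors showed the opposite picture. Erythroblasts make haemoglobin, a membrane skeleton and blood group proteins under the control of Gata1, Tal1, Lmo2, Ldb1 and Klf1, with erythropoietin keeping them alive. Of 29 erythroid genes, 24 were higher in ssNM-R, 1 was lower and 4 did not pass, and the median was 2.30. Without mouse 1 the counts were 25 and 1 and the median was 1.72. The adult haemoglobin genes were not analysed here.

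For 6 of the 23 erythroid genes with a single mouse gene model, the 250 bases before the annotated start in mm9 (GENCODE vM1) hold the core GATA motif AGATAA or its other strand TTATCT (26.1%, against 6.59% of 10348 genes). The motif was found in 4 of 14 haem synthesis genes (28.6%), 0 of 19 megakaryocyte genes, 1 of 16 B cell genes (6.25%) and 2 of 19 T cell genes (10.5%). The windows of Kel, Epor and Tal1 are shown because these genes had some of the largest differences of the list; each is written in the direction of the gene, with the motif in capitals, and lies at chr6:41654339-41654588 (minus strand), chr9:21768021-21768270 (minus strand) and chr4:114728781-114729030 (plus strand). A match describes these letters of the mouse genome and not binding.
Kel: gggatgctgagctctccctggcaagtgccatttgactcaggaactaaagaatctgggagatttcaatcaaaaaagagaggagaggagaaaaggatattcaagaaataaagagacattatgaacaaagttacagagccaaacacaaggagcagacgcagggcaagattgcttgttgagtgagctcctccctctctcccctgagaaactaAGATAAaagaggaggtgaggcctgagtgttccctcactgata
Epor: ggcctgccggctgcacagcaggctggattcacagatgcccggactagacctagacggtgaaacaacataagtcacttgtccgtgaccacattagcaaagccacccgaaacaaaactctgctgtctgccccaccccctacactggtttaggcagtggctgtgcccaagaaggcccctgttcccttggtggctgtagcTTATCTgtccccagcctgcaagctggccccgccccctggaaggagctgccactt
Tal1: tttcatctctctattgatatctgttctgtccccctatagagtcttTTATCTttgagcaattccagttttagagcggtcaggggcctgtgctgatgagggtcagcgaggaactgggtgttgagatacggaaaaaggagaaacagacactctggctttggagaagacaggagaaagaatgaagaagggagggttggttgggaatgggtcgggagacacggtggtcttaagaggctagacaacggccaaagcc
The motif starts 42 bases before the gene start in Kel, 54 in Epor and 205 in Tal1.

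Kel, the Kell blood group protein, had 562, 1837 and 2656 in mice and 50347, 37405 and 34761 in ssNM-R (4.85 ± 0.53, adjusted p = 0.000113). Epor, the erythropoietin receptor, had 367, 687 and 879.8 in mice and 7919, 7709 and 7767 in ssNM-R (3.68 ± 0.29, adjusted p = 2.24e-05). Tal1 had 710.4, 1991 and 2243 in mice and 17781, 14271 and 12933 in ssNM-R (3.34 ± 0.41, adjusted p = 0.000226) and Gata1 304, 789 and 1053 in mice and 5556, 4887 and 4623 in ssNM-R (2.98 ± 0.42, adjusted p = 0.000412). For each of these 4 genes mouse 1 was the lowest spleen of all, and the lowest ssNM-R was still several times above the highest mouse. The NM-R values were close to one another for Epor, the mouse values were not.

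Sptb, a spectrin chain, had 1795, 5338 and 6574 in mice and 24350.5, 19674 and 15615 in ssNM-R (2.30 ± 0.46, adjusted p = 0.00288). Ank1, which anchors spectrin to the membrane, had 1290.4, 3965 and 4682 in mice and 37940.4, 27329.6 and 21059.5 in ssNM-R (3.28 ± 0.48, adjusted p = 0.000554). Add2, which caps the actin of this skeleton and whose upstream window also holds the motif, had 360.2, 1253 and 1461 in mice and 11793, 9697 and 7933 in ssNM-R (3.47 ± 0.50, adjusted p = 0.000489). The anion exchanger Slc4a1 differed less, with 7373, 22820.2 and 29247 in mice and 60439, 44575 and 39086 in ssNM-R (1.47 ± 0.49, adjusted p = 0.0281). That call was lost under quantile normalization (0.99) and without ssNM-R 2, 3 or 6 (1.30, 1.51 and 1.61). Klf1, the erythroid Krüppel-like factor, had 282, 1201 and 1616 in mice and 2333, 2034 and 2104 in ssNM-R and did not pass (1.39 ± 0.59, adjusted p = 0.0631), although the groups did not overlap. It passed without mouse 1 (0.63) and without mouse 3 (1.89). Epb41, another skeleton protein, overlapped between groups, with 6582, 9169 and 10764 in mice and 9378, 6164 and 5181 in ssNM-R. Nxpe2 was the 1 lower gene, with 602, 1419.6 and 1912 in mice and 0, 0 and 0.632 in ssNM-R, at least 375-fold lower against a floor of 3 reads per library. Mouse 1 was the lowest mouse for Nxpe2 too. The NM-R values of Nxpe2 were the same as those of another gene, so its difference is uncertain.

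Haem synthesis genes followed the erythroid list. Of 15 genes, 12 were higher and 1 lower, with a median of 1.27 and of 1.05 without mouse 1, when 11 were higher and 1 lower. Alas2, the first enzyme of haem synthesis in erythroid cells, had 11191, 16079.8 and 19388 in mice and 45862, 32910 and 32119.8 in ssNM-R (1.27 ± 0.24, adjusted p = 0.00231). Fech, which inserts the iron, had 3468, 5709 and 7716 in mice and 10893, 8859 and 8000.4 in ssNM-R (0.78 ± 0.28, adjusted p = 0.0381). The call of Fech was lost without any 1 library other than mouse 3, with 0.47 without mouse 1 and 0.66 to 0.88 without the others. The ferrireductase Steap3, which readies iron for import, showed the largest difference, with 267, 518 and 603 in mice and 5292, 4294 and 3502 in ssNM-R (3.30 ± 0.31, adjusted p = 5.16e-05).

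Where 37.8% of all genes were higher and 37.5% lower, 9 of 19 genes of iron handling were higher and 4 lower. Those tied to erythroid uptake were higher: Tfrc, the transferrin receptor, had 2089, 5252 and 7013 in mice and 25525, 18658 and 13222 in ssNM-R (2.12 ± 0.45, adjusted p = 0.0038) and Tfr2 114, 301 and 359.7 in mice and 4037, 3521 and 3014 in ssNM-R (3.91 ± 0.40, adjusted p = 8.29e-05). The genes of haem and iron recycling went several ways. Blvrb, which reduces biliverdin in red cells and elsewhere, had 2286, 3708 and 4731 in mice and 21948, 18205 and 14797 in ssNM-R (2.40 ± 0.28, adjusted p = 0.00015). Slc40a1, the iron exporter ferroportin, had 13965, 11539.5 and 10016 in mice and 19805, 16556 and 11569.6 in ssNM-R and overlapped (called higher without ssNM-R 6, at 0.63), and Hmox1, which breaks down haem, had 12021, 9943 and 10874 in mice and 8644, 8373 and 9211 in ssNM-R (-0.32 ± 0.11, adjusted p = 0.0352). The call of Hmox1 was lost without mouse 1, mouse 3, ssNM-R 2 or ssNM-R 3, with -0.25 to -0.32. Bmp6, a signal for hepcidin, was lower, with 404, 311 and 265 in mice and 19.1, 13.5 and 35.4 in ssNM-R (-3.88 ± 0.35, adjusted p = 4.65e-05). Hp, haptoglobin, which binds free haemoglobin and is made chiefly by liver, had 434, 435 and 406 in mice and 706, 1180.02 and 4377 in ssNM-R (1.85 ± 0.59, adjusted p = 0.0229, a call lost without mouse 1, 2 or 3, with 1.82 to 1.87); its highest value fell in ssNM-R 6, the spleen with the high albumin count. The same held for haemopexin, Hpx, with 13.7, 9.01 and 210.4 in ssNM-R.

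Genes of dividing cells were mostly higher. Of 27 cell cycle genes, 21 were higher and none was lower (median 1.59), and without mouse 1 the count was 20 and 0 (median 1.32), and without ssNM-R 3 or ssNM-R 6 it was 20 and 1. Cenpf, a kinetochore protein of dividing cells, had 546, 1136 and 1353 in mice and 17497, 14506 and 12366 in ssNM-R (3.95 ± 0.33, adjusted p = 2.87e-05). Top2a, which untangles replicated DNA, had 2341, 3924 and 4925 in mice and 10855, 8613 and 8603 in ssNM-R (1.38 ± 0.26, adjusted p = 0.00219), and Mcm5, a subunit of the replicative helicase, 1449, 2216 and 2709.8 in mice and 10283, 9161 and 6524 in ssNM-R (2.05 ± 0.26, adjusted p = 0.000254). Of the D-type cyclins, Ccnd3 was higher (0.58, a call lost without any 1 library other than mouse 3, with 0.35 without mouse 1 and 0.50 to 0.62 without the others), whereas Ccnd2 had 2802, 2976 and 2676 in mice and 2282, 2559.7 and 2626 in ssNM-R and Ccnd1 1759, 1545 and 1682 in mice and 1231, 1548 and 719 in ssNM-R, and neither of these passed, except Ccnd1 without ssNM-R 3 (-0.82). The inhibitors Cdkn1a (172, 171 and 175 in mice and 98.5, 129 and 283 in ssNM-R) and Cdkn1b (1847, 2064 and 2271 in mice and 2087, 1857 and 1900.3 in ssNM-R) overlapped between groups, and Cdkn1a was called lower without ssNM-R 6 (-0.61).

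Megakaryocytes shed platelets. Of 20 genes of this lineage, 12 were higher, 3 lower and 5 did not pass (median 0.66). Itga2b, the platelet integrin chain CD41, had 1363, 1444 and 1033 in mice and 6807, 6405 and 7458 in ssNM-R (2.44 ± 0.14, adjusted p = 6.16e-06), and Tubb1, the tubulin of platelets, had 782, 824 and 531 in mice and 2284, 2333 and 2132 in ssNM-R (1.68 ± 0.17, adjusted p = 7.68e-05). Gfi1b, a factor shared by megakaryocytes and erythroblasts, had 207, 451 and 661 in mice and 4189.9, 3456 and 2919.6 in ssNM-R (3.14 ± 0.39, adjusted p = 0.000234), again with mouse 1 lowest. On the other side, Vwf, the clotting protein of platelets and endothelium, had 1447, 1569 and 1159.8 in mice and 409, 359 and 493 in ssNM-R (-1.73 ± 0.16, adjusted p = 4.98e-05). Gp1bb, a receptor for Vwf, was higher, with 138, 179 and 135 in mice and 386, 357 and 495 in ssNM-R (1.44 ± 0.18, adjusted p = 0.000224).

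Stem and progenitor cell genes leaned the same way, with 11 of 19 higher and 1 lower (median 1.02). Cd34, a surface marker of progenitors and endothelium, had 366, 368 and 325 in mice and 1682, 1919 and 1438 in ssNM-R (2.24 ± 0.13, adjusted p = 5.44e-06). Hoxa9 had 5.02, 9.78 and 2.10 in mice and 278, 116 and 182 in ssNM-R (4.95 ± 0.52, adjusted p = 9.06e-05) and Hoxa5 44.2, 31.5 and 38.8 in mice and 562, 263 and 360.2 in ssNM-R (3.28 ± 0.29, adjusted p = 4.13e-05); these homeobox genes mark early progenitors. Procr, a marker of mouse stem cells, was lower, with 206, 197 and 214 in mice and 119, 111 and 102 in ssNM-R (-0.89 ± 0.14, adjusted p = 0.000719), and Mecom and Runx1 did not pass. Kit, Myb and Gata2 were not analysed here.

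The neutrophil list held genes of both directions. Of 17 genes, 7 were higher and 8 lower, where 37.8% of all genes were higher and 37.5% lower. The list median was -0.17, against 0.03 without ssNM-R 2 and -0.40 without ssNM-R 6. Some proteins of granules were higher: Mpo, myeloperoxidase of early granules, had 1021, 962 and 797 in mice and 5107, 3460.5 and 4585 in ssNM-R (2.23 ± 0.17, adjusted p = 1.75e-05) and Ltf, lactoferrin of later ones, 1601, 1487 and 1266 in mice and 8099.5, 8469 and 5811 in ssNM-R (2.35 ± 0.17, adjusted p = 1.41e-05). S100a9, a calcium-binding protein abundant in neutrophils, had 4477, 4211 and 3604 in mice and 16840.4, 15843 and 10976 in ssNM-R (1.81 ± 0.18, adjusted p = 7.73e-05). Padi4, which modifies histones in neutrophils, had the largest difference among the higher genes, with 119, 109.8 and 87.0 in mice and 2204, 2653 and 1936 in ssNM-R (4.41 ± 0.17, adjusted p = 1.08e-06). Receptor, oxidase and other granule genes were lower. The chemokine receptor Cxcr2 had 578, 451 and 417 in mice and 126, 159 and 91.0 in ssNM-R (-1.96 ± 0.23, adjusted p = 0.000168), the oxidase subunit Ncf1 3491, 3409 and 3329.6 in mice and 549.7, 808 and 686 in ssNM-R (-2.34 ± 0.14, adjusted p = 7.06e-06) and the antibacterial protein Pglyrp1 326, 343 and 344 in mice and 16.4, 7.51 and 8.22 in ssNM-R (-4.93 ± 0.30, adjusted p = 6.94e-06). Elane, Prtn3, Ctsg and Camp, further granule proteins, were not analysed here.

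Of 8 genes of mast cells, basophils and eosinophils, 5 were higher and 2 lower. Cma1, a mast cell protease, had 29.1, 22.8 and 22.0 in mice and 146, 224 and 105 in ssNM-R (2.58 ± 0.30, adjusted p = 0.000171) and Hdc, which makes histamine, 176, 167 and 135 in mice and 695, 733 and 640.2 in ssNM-R (2.11 ± 0.14, adjusted p = 8.98e-06). The eosinophil receptors Ccr3 (1581, 1382 and 1142 in mice and 16.4, 43.5 and 3.16 in ssNM-R) and Il5ra (309, 347 and 332 in mice and 12.3, 19.5 and 12.0 in ssNM-R) were lower, whereas Epx, the eosinophil peroxidase, ranged widely within both groups, with 212, 177 and 44.0 in mice and 189, 485 and 61.3 in ssNM-R (0.58 ± 0.84, adjusted p = 0.55).

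Macrophage genes also lay on both sides, with 8 of 17 higher and 7 lower, where 37.8% of all genes were higher and 37.5% lower. Their median was 0.22 (0.38 without mouse 1 and 0.05 without mouse 3). Adgre1, the F4/80 antigen of mouse red pulp macrophages, had 3014, 2469 and 2429.8 in mice and 84.8, 97.6 and 25.9 in ssNM-R (-5.43 ± 0.46, adjusted p = 3.20e-05). Cd163, the receptor for haptoglobin bound to haemoglobin, had 1888, 1688 and 1018 in mice and 13.7, 88.6 and 205 in ssNM-R (-4.52 ± 0.87, adjusted p = 0.00228), and Marco, a scavenger receptor of the marginal zone, had 3039, 3054 and 2521 in mice and 242, 362 and 179 in ssNM-R (-3.51 ± 0.24, adjusted p = 1.20e-05). Other genes of macrophages were higher. Msr1, another scavenger receptor, had 67.2, 55.4 and 84.9 in mice and 1976, 2363 and 1317 in ssNM-R (4.73 ± 0.25, adjusted p = 3.87e-06), Siglec1, the sialic acid receptor of marginal metallophils, 2984, 1959 and 1569 in mice and 13898, 17122 and 7799 in ssNM-R (2.55 ± 0.34, adjusted p = 0.000302) and the complement starter C1qa 3421, 3338 and 3406 in mice and 10028, 14408 and 13024 in ssNM-R (1.87 ± 0.14, adjusted p = 2.09e-05). Cd14, the co-receptor for bacterial lipopolysaccharide, had 276, 302 and 272 in mice and 2511, 4154 and 9167 in ssNM-R (4.01 ± 0.42, adjusted p = 8.80e-05). It was highest in ssNM-R 6, and all 3 NM-Rs lay above the mice. Vcam1, the adhesion molecule of red pulp macrophages, overlapped, with 16207, 14950.4 and 14202 in mice and 10499, 15744 and 11026 in ssNM-R, and was called lower without ssNM-R 3 (-0.49).

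**Figure D3:**
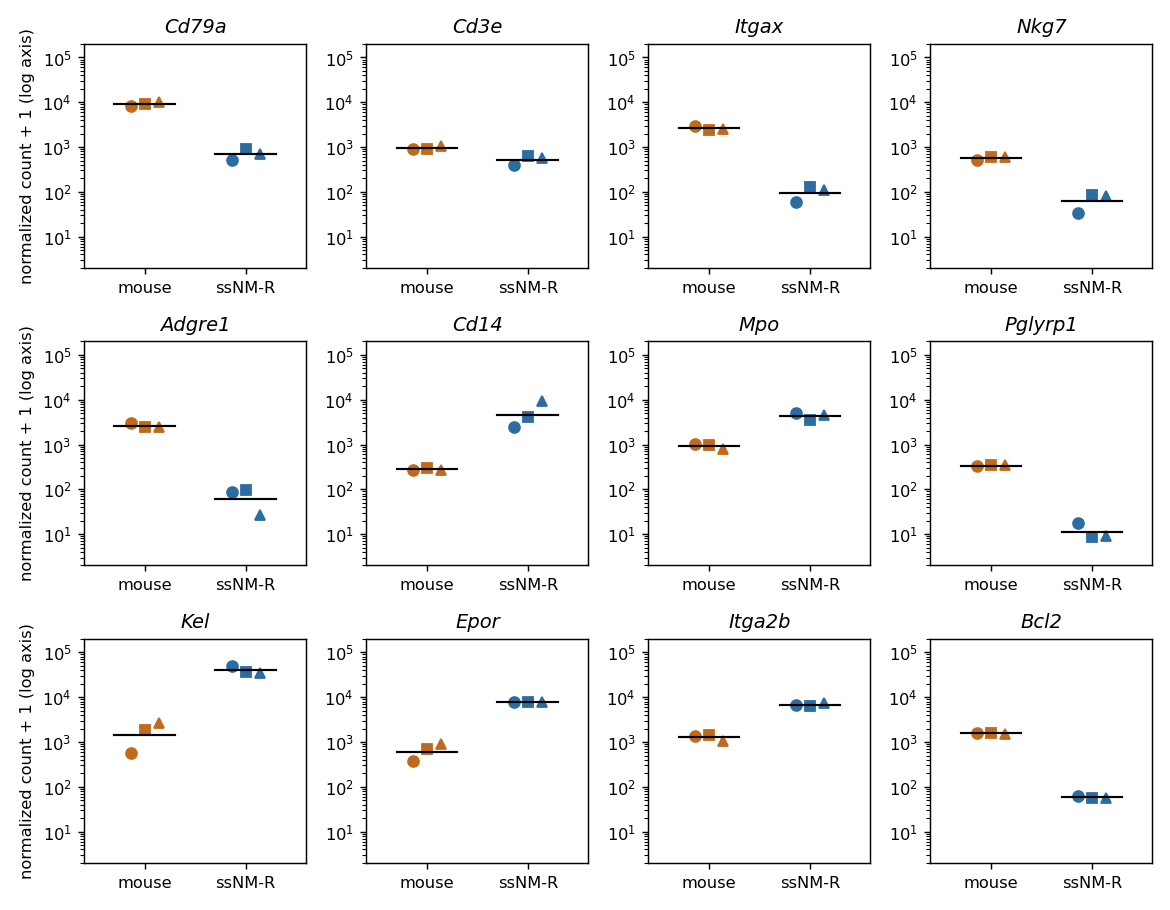
Normalized counts plus 1 (log axis) of 12 lineage genes in each spleen (orange, mice; blue, ssNM-R; circle, square and triangle for mouse 1, 2, 3 or ssNM-R 2, 3, 6; the bar is the mean of the log values). Within a lineage genes differ in both directions: Adgre1 against Cd14, and Pglyrp1 against Mpo.

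Of 18 genes for sensors of microbes, 5 were higher and 6 lower (median -0.08), where 37.8% of all genes were higher and 37.5% lower. Tlr3, a sensor of double-stranded viral RNA, had 465, 426 and 481 in mice and 80.7, 73.6 and 40.4 in ssNM-R (-2.86 ± 0.26, adjusted p = 4.76e-05). Tlr7, a sensor of single-stranded RNA, had 1085, 971 and 904 in mice and 216, 315 and 50.6 in ssNM-R (-2.69 ± 0.61, adjusted p = 0.00487). Both were lowest in ssNM-R 6. Clec4e, a receptor for mycobacterial glycolipid, was higher, with 52.2, 55.4 and 55.6 in mice and 551, 658 and 1011 in ssNM-R (3.69 ± 0.23, adjusted p = 7.32e-06), as was Clec7a, a receptor for fungal glucan, with 624, 512 and 451 in mice and 2997, 2795 and 1757 in ssNM-R (2.22 ± 0.22, adjusted p = 7.12e-05). The adaptor Myd88 had 967, 950.03 and 1009 in mice and 851, 883 and 929 in ssNM-R and did not pass. Clec6a, another receptor for fungi, was read at 1059, 936 and 1137 in mice and 0, 0 and 0.632 in ssNM-R, at least 298-fold lower. Its NM-R values were the same as those of another gene, so this difference is uncertain.

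Of 12 interferon response genes, 2 were higher and 7 lower, and without ssNM-R 6 the counts were 4 and 7. Isg15 and Rsad2, antiviral effectors, were the 2 higher genes. Isg15 had 305, 716 and 1048 in mice and 2758, 3400.4 and 2863 in ssNM-R (2.29 ± 0.41, adjusted p = 0.00148), with mouse 1 lowest. Xaf1, an interferon-induced factor of cell death, was read at 638, 1071 and 1256 in mice and 0, 0 and 0 in ssNM-R, at least 282-fold lower. Its NM-R values were the same as those of another gene, so this difference is uncertain.

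Complement genes ranged widely. Of 13, 8 were higher and 3 lower (median 1.71). C7, which builds the membrane attack complex, had 30.1, 18.5 and 19.9 in mice and 3224, 3636 and 4134 in ssNM-R (7.29 ± 0.20, adjusted p = 3.28e-07), and C6, its partner in the same complex, had 1194, 1032 and 955 in mice and 0, 1.501 and 10.1 in ssNM-R (-8.45 ± 0.78, adjusted p = 4.90e-05). The pair thus differed in opposite directions. C2, a protease of the classical pathway, had 559, 477 and 425 in mice and 9872, 13869 and 8913 in ssNM-R (4.46 ± 0.18, adjusted p = 1.54e-06). Exons of other genes, on either strand, cover 44.8% of its exonic bases in mm9. C3, the central component, had 22623, 20294 and 18306 in mice and 11789, 15998 and 14406 in ssNM-R (-0.54 ± 0.16, adjusted p = 0.0162), a call that was lost without mouse 1 (-0.47) and without mouse 2 (-0.54). Cfd, also a product of fat, had 1.00, 4.35 and 78.7 in mice and 547, 731 and 466 in ssNM-R. Albumin, the liver marker, had 95.3, 223 and 116 in mice and 60.2, 209 and 2173 in ssNM-R, and its part in the complement values was not tested.

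Vessels and stroma differed gene by gene. Of 13 endothelial genes, 3 were higher and 6 lower, where 37.8% of all genes were higher and 37.5% lower. Pecam1 (CD31), at endothelial junctions, had 4287, 3728 and 3566 in mice and 935, 1094 and 866 in ssNM-R (-2.001 ± 0.12, adjusted p = 6.90e-06). Cdh5, the junction protein VE-cadherin, had 1616, 1265 and 1136 in mice and 1285, 1329 and 1208 in ssNM-R and overlapped. Emcn, a sialomucin of veins and capillaries, was higher, with 23.1, 27.2 and 28.3 in mice and 241, 289.8 and 291 in ssNM-R (3.34 ± 0.18, adjusted p = 4.35e-06). Smooth muscle genes were mostly higher, with 9 of 14 higher and 1 lower (median 1.23). Acta2, smooth muscle actin, had 2471, 2383 and 1753 in mice and 10434, 9215 and 14145 in ssNM-R (2.35 ± 0.20, adjusted p = 3.13e-05), and Tagln, which binds actin, had 2015, 2132 and 1604 in mice and 8310.1, 7203 and 13483 in ssNM-R (2.29 ± 0.24, adjusted p = 9.07e-05). Without ssNM-R 6, the highest spleen for both, the counts of this list were again 9 and 1. Des, the filament protein desmin, was the 1 lower gene (1596, 1552 and 1405 in mice and 796, 879.8 and 986 in ssNM-R).

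Of 27 extracellular matrix genes, 16 were higher and 4 lower (median 0.60). Without ssNM-R 6 the counts were 16 and 7 and the median 0.43, and without mouse 2 they were 15 and 2. Postn, periostin, an adhesive matrix protein, had 322, 336 and 317 in mice and 8893, 10722 and 7849 in ssNM-R (4.801 ± 0.12, adjusted p = 2.50e-07). Lama5, a laminin chain of basement membranes, had 477, 352 and 288 in mice and 5727, 4304 and 3787 in ssNM-R (3.63 ± 0.22, adjusted p = 6.77e-06) and Col4a2, a basement membrane collagen, 3491, 2901 and 2662 in mice and 10649.8, 10598 and 20968 in ssNM-R (2.15 ± 0.27, adjusted p = 0.000252). Col14a1, a collagen of fibrils, was lower, with 4647, 3612 and 2843 in mice and 305, 375 and 930.2 in ssNM-R (-2.93 ± 0.41, adjusted p = 0.000402). The fibrillar collagen Col1a1 overlapped between groups, with 1971, 1809.8 and 1956 in mice and 986, 1434 and 2320.5 in ssNM-R, and was called lower without ssNM-R 6 (-0.68).

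Hyaluronan is a matrix sugar for which NM-Rs are known. Its synthases Has2 and Has1 were barely read in any spleen, and Has3 was not analysed here. Has2 had 7.02, 9.78 and 9.44 in mice and 6.84, 6.01 and 5.06 in ssNM-R. Has1 had 0, 0 and 1.05 in mice and 5.47, 6.01 and 29.7 in ssNM-R (log2 fold change 3.14). Tnfaip6, which modifies and crosslinks hyaluronan, had 11.04, 7.61 and 3.15 in mice and 744, 962 and 907 in ssNM-R (6.84 ± 0.38, adjusted p = 5.10e-06), and Hyal3, a member of the hyaluronidase family, 11.04, 9.78 and 15.7 in mice and 639.98, 542 and 502 in ssNM-R (5.43 ± 0.22, adjusted p = 1.54e-06). The hyaluronidase Hyal2 had 391, 397 and 381 in mice and 358, 387 and 393 in ssNM-R and overlapped (-0.04 ± 0.10, adjusted p = 0.74), with a 95% interval of the log2 fold change from -0.27 to 0.19. The receptor Cd44 had 4159, 3875 and 3819 in mice and 2095, 3048 and 2286 in ssNM-R (-0.69 ± 0.15, adjusted p = 0.00365). Over the 11 genes, 6 were higher and 3 lower, where 37.8% of all genes were higher and 37.5% lower.

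Bcl2 proteins set the threshold for cell death. Of 10 genes, 8 were lower and 2 higher (median -1.40). Bcl2, the survival protein of lymphocytes, had 1612, 1628 and 1531 in mice and 61.5, 54.0 and 56.2 in ssNM-R (-4.77 ± 0.11, adjusted p = 1.54e-07), whereas Bcl2l1, the survival protein of erythroblasts, had 679, 1174 and 1645 in mice and 3179, 2746 and 3067 in ssNM-R (1.45 ± 0.29, adjusted p = 0.0028). Death effectors were lower too: Bax had 782, 854 and 899.8 in mice and 334, 345 and 423 in ssNM-R (-1.21 ± 0.12, adjusted p = 8.62e-05) and Bak1 a log2 fold change of -1.21. The sensor Bmf had 921, 808 and 826 in mice and 60.2, 67.6 and 64.5 in ssNM-R (-3.71 ± 0.12, adjusted p = 6.36e-07).

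In the insulin-like growth factor axis, 11 of 19 genes were higher and 3 lower, with a median of 1.00, and of 0.62 without ssNM-R 6. Igf1, the ligand, had 1397, 1213 and 1075 in mice and 112, 102 and 141 in ssNM-R (-3.37 ± 0.16, adjusted p = 2.65e-06). Igf1r, its receptor, had 278, 259.8 and 202 in mice and 703, 616 and 339.99 in ssNM-R (1.11 ± 0.28, adjusted p = 0.00822) and Ghr, the growth hormone receptor, 233, 136 and 122 in mice and 1043, 1206 and 1218 in ssNM-R (2.87 ± 0.24, adjusted p = 2.95e-05). Igf2 had 219.8, 195 and 187 in mice and 87.5, 116 and 383 in ssNM-R and did not pass, but was called lower without ssNM-R 6 (-0.98). Igf2bp3, an RNA-binding protein typical of fetal tissue, was low in both groups, with 22.1, 10.9 and 10.5 in mice and 77.9, 88.6 and 87.8 in ssNM-R (2.55 ± 0.32, adjusted p = 0.000234).

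Of 19 antioxidant genes, 9 were higher and 6 lower (median -0.08), where 37.8% of all genes were higher and 37.5% lower. Without mouse 1 the counts were 8 and 7 and the median -0.19, and the median was 0.10 without mouse 3. Catalase, Cat, had 2867, 3308 and 3682 in mice and 25289, 20864 and 21988 in ssNM-R (2.79 ± 0.13, adjusted p = 2.74e-06) and Prdx2, the peroxiredoxin of red cells, 2744, 5683 and 7687 in mice and 31102, 27127 and 25357 in ssNM-R (2.49 ± 0.35, adjusted p = 0.000431). Gpx3 and Sod3 act outside the cell and were lower. Gpx3 had 2816, 3800.1 and 3124 in mice and 148, 133.6 and 230.03 in ssNM-R (-4.27 ± 0.22, adjusted p = 3.47e-06) and Sod3 1116, 1009 and 1106 in mice and 84.8, 99.1 and 164 in ssNM-R (-3.26 ± 0.24, adjusted p = 1.49e-05). Gpx1, the main glutathione peroxidase of the cytosol, had 7958, 12464 and 16718 in mice and 10622, 10506 and 10887 in ssNM-R and overlapped, and was called lower without mouse 1 (-0.44).

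Of 25 genes of glycolysis and the response to low oxygen, 12 were higher and 8 lower (median 0.39, and 0.59 without ssNM-R 2 and 0.71 without ssNM-R 3). Over all genes, 37.8% were higher and 37.5% lower. Slc2a1, the glucose transporter also found on red cells, had 974, 900.03 and 857 in mice and 6209.7, 4384 and 3932 in ssNM-R (2.384 ± 0.17, adjusted p = 1.47e-05), and Ldhb, the lactate dehydrogenase chain of oxidative tissue, 112, 104 and 112 in mice and 737, 679 and 911 in ssNM-R (2.80 ± 0.14, adjusted p = 3.30e-06). Hif1a, the oxygen-sensitive factor, overlapped, with 2248, 2009.8 and 1973 in mice and 1764, 1800.1 and 2326 in ssNM-R (-0.09 ± 0.13, adjusted p = 0.54). Its relative Epas1 had 4235, 3704 and 3257 in mice and 4513, 6689.8 and 9698 in ssNM-R (0.84 ± 0.26, adjusted p = 0.0219), a call lost without mouse 2, mouse 3 or ssNM-R 3 (0.84, 0.75 and 0.83). Pdk1, which keeps pyruvate out of mitochondria, was lower, with 1611, 1529 and 1642 in mice and 636, 552 and 670.5 in ssNM-R (-1.37 ± 0.10, adjusted p = 1.69e-05).

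Lists of genes that every cell needs had medians nearer to 0 than those of the B cell, T cell and erythroid lists. Of 61 mitochondrial ribosomal proteins, 41 were higher and 3 lower (median 0.63), against 35 and 4 without mouse 1 and 38 and 6 without ssNM-R 6. Of 24 proteasome subunits 19 were higher and none lower (median 0.74), the same counts as without mouse 1. The immunoproteasome subunits Psmb8 and Psmb10 were not in this list and had log2 fold changes of -3.62 and -3.39. The proteasome subunit Psmb5 had 627, 693 and 781 in mice and 2260.4, 2199 and 2409 in ssNM-R (1.71 ± 0.11, adjusted p = 7.47e-06), and 73.9% of the windows of its mouse exons occur elsewhere in mm9. Respiratory chain subunits (27 of 48 higher, 6 lower, against 23 and 8 without mouse 1), splicing factors (24 of 32 higher, 4 lower, against 19 and 2 without mouse 1), tRNA synthetases (14 of 22 higher, 3 lower) and translation factors (20 of 37 higher, 6 lower) had medians between 0.40 and 0.64. Cytosolic ribosomal proteins had a median of 0.24, with 11 of 35 higher and 4 lower, against 10 and 4 with a median of 0.15 without mouse 1. Under quantile normalization 10 were higher and 11 lower.

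Single members stood out from these lists. Eif4g3, a scaffold of translation initiation, had 4140.1, 3673 and 3462 in mice and 505, 469.9 and 464 in ssNM-R (-2.96 ± 0.10, adjusted p = 6.46e-07), and Lars2, the mitochondrial leucine tRNA synthetase, 5354, 4928 and 8888 in mice and 686, 643 and 662 in ssNM-R (-3.21 ± 0.21, adjusted p = 1.01e-05). Fancd2, a repair protein for crosslinked DNA, had 203, 308 and 419 in mice and 4526, 4478 and 4729 in ssNM-R (3.94 ± 0.24, adjusted p = 7.07e-06), while 24 of the 49 repair genes were higher and 12 lower. Ulk1, which starts autophagy, had 929, 1208 and 1299 in mice and 8703, 6829 and 6127 in ssNM-R (2.65 ± 0.17, adjusted p = 9.64e-06), with 11 of 21 autophagy genes higher and 7 lower. Of 32 lysosomal genes, 8 were higher and 17 lower; the osteoclast protease Ctsk had 78.3, 71.7 and 56.6 in mice and 1032, 857 and 1357 in ssNM-R (3.94 ± 0.20, adjusted p = 3.81e-06) and Ctso, a protease of the same family, 1806, 1471 and 1419.9 in mice and 76.6, 76.6 and 51.8 in ssNM-R (-4.51 ± 0.19, adjusted p = 1.58e-06). Among 35 mitochondrial carriers, 11 were higher and 18 lower, and Slc25a4, an exchanger of ADP and ATP, had 1699.8, 1624 and 1619 in mice and 10.9, 13.5 and 24.6 in ssNM-R (-6.65 ± 0.28, adjusted p = 1.58e-06). Of 55 chaperones, 20 were higher and 17 lower (13 and 17 without mouse 2). Of 27 integrin genes, 10 were higher and 9 lower. Over all genes, 37.8% were higher and 37.5% lower.

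Markers of tissues next to the spleen were read in both groups, and some of them were higher in ssNM-R. Of 13 liver markers, 4 were higher and none lower (2 and 1 without ssNM-R 6, with a median of 0.24); of 9 fat markers, 6 and 0; of 5 pancreas markers, 2 and 1; of 8 skeletal muscle markers, 2 and 4; of 8 mesothelial markers, 2 and 0 (4 and 0 without ssNM-R 2); of 2 stomach markers, 1 and 1 (1 and 0 without mouse 2 or mouse 3). The adipokine Retn had 4.01, 5.43 and 3.15 in mice and 507, 363 and 365 in ssNM-R (6.32 ± 0.26, adjusted p = 1.54e-06), while Plin1, which coats the fat droplet, had 0, 0 and 7.34 in mice and 1.37, 4.50 and 13.3 in ssNM-R (called higher without mouse 3, at 2.51). Msln, mesothelin, had 92.3, 133 and 66.1 in mice and 353, 808 and 1496 in ssNM-R (3.00 ± 0.51, adjusted p = 0.00119). The muscle myosin Myh1 had 11.04, 7.61 and 8.39 in mice and 1357, 755 and 952 in ssNM-R (6.65 ± 0.26, adjusted p = 1.29e-06), while muscle actin Acta1 was read at 7.02, 4.35 and 4.19 in mice and 9.57, 15.01 and 5.06 in ssNM-R (called higher without ssNM-R 6, at 1.10) and the troponin Tnnt3 at 51.2, 62.0 and 57.7 in mice and 1.37, 1.501 and 6.32 in ssNM-R. In Myh1, 39.1% of the 32-base windows of the mouse exons occur again elsewhere in mm9. No list of a neighbouring tissue had all its markers higher, and the part of such tissue in these values was not tested.

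The largest differences among well-read genes were taken from those with at least 10 normalized counts in every spleen of the lower group and a mean of at least 1000 in the higher. At the top stood Phospho1, a phosphatase of mineralizing cartilage also present in red cells, with 23.1, 28.3 and 46.1 in mice and 9379, 7583 and 7564 in ssNM-R (7.98 ± 0.24, adjusted p = 4.82e-07). Gchfr, which restrains the first enzyme of tetrahydrobiopterin synthesis, had 20.1, 14.1 and 12.6 in mice and 2985, 2816 and 2187 in ssNM-R (7.34 ± 0.21, adjusted p = 3.63e-07) and Pla2g4c, a phospholipase, 28.1, 80.4 and 116 in mice and 11837, 9554 and 9578 in ssNM-R (7.30 ± 0.46, adjusted p = 8.48e-06). Gstm2, Tmem100, Tfpi2, Peli3, Unc13b, Arg2, Plek2, Pex10 and Ndrg4 followed, with log2 fold changes of 5.24 to 6.87. In Gstm2, 34.1% of the 32-base windows of the mouse exons occur again elsewhere in mm9.

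At the other end, Coch, cochlin, an extracellular protein of the inner ear and of follicular dendritic cells, had 23165, 19884 and 15917 in mice and 43.8, 64.6 and 75.8 in ssNM-R (-8.32 ± 0.22, adjusted p = 2.74e-07). Star, which carries cholesterol into mitochondria, had 2263, 2280.5 and 2013 in mice and 10.9, 12.0 and 10.1 in ssNM-R (-7.51 ± 0.14, adjusted p = 7.37e-08), and Dnase1l3, a nuclease secreted by dendritic cells and macrophages, 4752, 4538 and 5512 in mice and 30.1, 27.0 and 22.8 in ssNM-R (-7.48 ± 0.14, adjusted p = 7.51e-08). Btla, an inhibitory receptor of B and T cells, had 6128, 5381 and 6114 in mice and 45.1, 84.1 and 42.3 in ssNM-R (-6.73 ± 0.25, adjusted p = 1.05e-06). Tnfrsf13b (TACI), a receptor for B cell survival factors, had 2114, 2071 and 1978 in mice and 19.1, 45.0 and 16.4 in ssNM-R (-6.34 ± 0.34, adjusted p = 4.53e-06). Gimap4, a GTPase of lymphocytes, had 4373, 4393 and 4561 in mice and 39.7, 48.0 and 43.6 in ssNM-R (-6.64 ± 0.11, adjusted p = 4.36e-08). Of the 15 lowest genes, Pax5, Btla, Tnfrsf13b, Gimap4 and Ccl5 are thus known from lymphocytes. The others were Gdpd2, Sbk1, Pla2g2d, Kbtbd11, Slc25a4, Chst3 and Atrnl1.

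**Figure D4:**
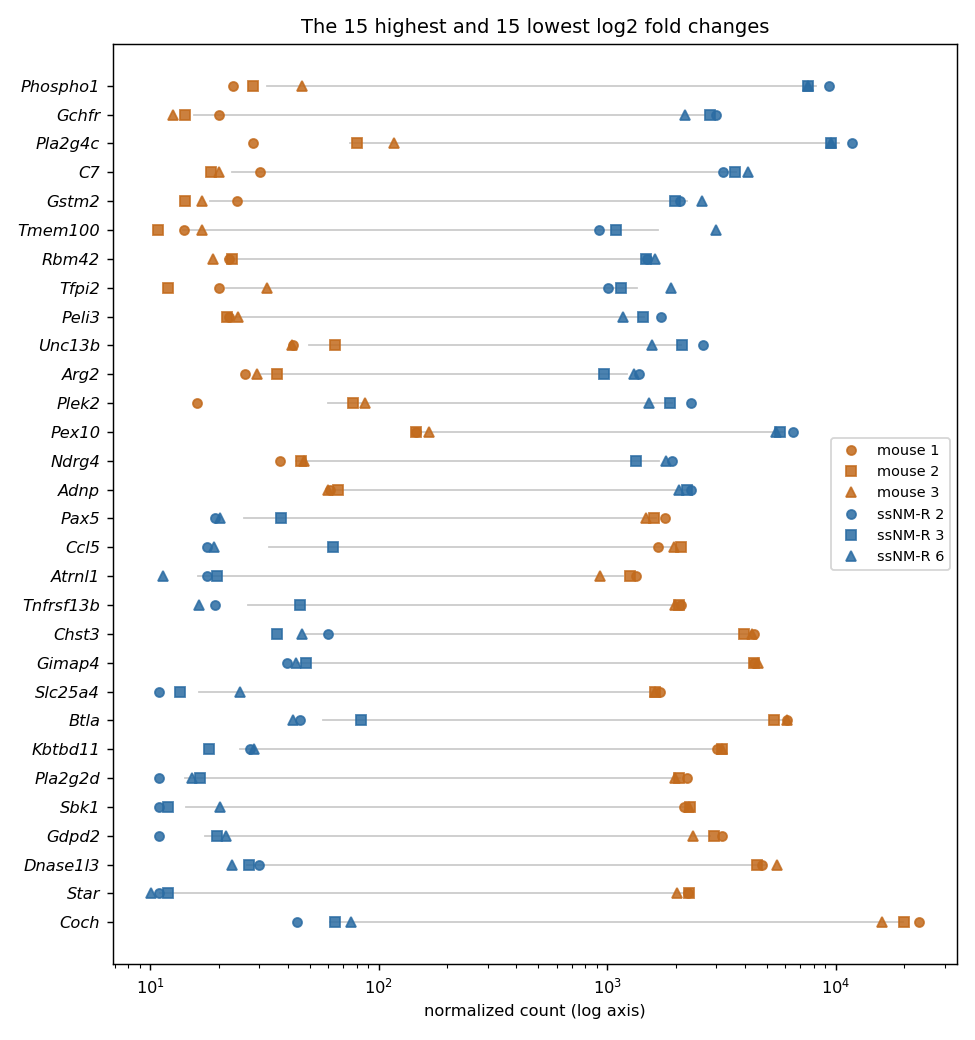
Normalized counts (log axis) in each spleen for the 15 genes with the highest and the 15 with the lowest log2 fold change among well-read genes; the grey line joins the group means. Groups are separated in all 30, and mouse 1 lies below the other mice for Pla2g4c and Plek2.

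Rbm42, Adnp and Phospho1, 3 of the 15 highest genes, share most of their exonic bases in mouse with a neighbour on the same strand. In the mm9 annotation the exons of Zfp652 and other genes cover 84.5% of the exonic bases of Phospho1 (chromosome 11, 95685813 to 95693454), those of Haus5 and others cover 75.2% of Rbm42 (chromosome 7, 31426013 to 31435336) and those of Dpm1 and others 82.1% of Adnp (chromosome 2, 168006486 to 168032612). Rbm42, an RNA-binding protein, had 22.1, 22.8 and 18.9 in mice and 1500.1, 1477 and 1623 in ssNM-R (6.11 ± 0.14, adjusted p = 1.41e-07), and Adnp, a chromatin factor, had 61.2, 66.3 and 59.8 in mice and 2315, 2228 and 2070.2 in ssNM-R (5.12 ± 0.11, adjusted p = 1.12e-07). A covered share of 50% or more on the same strand was found for 48 of 10348 genes (0.464%), for 28 of 756 genes with a log2 fold change over 3 (3.70%), for 1 of 701 under -3 (0.143%) and for none of the 15 lowest. Mrpl53, a mitochondrial ribosomal protein (34.1, 37.0 and 31.5 in mice and 432, 411 and 419 in ssNM-R), and Eif4ebp3, a repressor of translation initiation (23.1, 10.9 and 22.0 in mice and 246, 236 and 279 in ssNM-R), were covered to 87.1% and 67.3%. How the read counter treated such bases is not given in the sources used here, and its part in these differences was not tested.

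The 13 proteins encoded by the mitochondrial genome were all higher in ssNM-R, and they fell into separate sets. Cox1, a core subunit of cytochrome oxidase, had 107574, 117461 and 122647 in mice and 228661, 216450 and 244735 in ssNM-R (0.99 ± 0.25, adjusted p = 0.00881), and Cytb, Nd1 and Nd5 had log2 fold changes of 0.78, 0.64 and 0.52. Under quantile normalization Nd5 was at -0.02, and Cox1 and Nd1, at 0.31 and 0.13, did not pass. The call of Nd5 was also lost without mouse 2, mouse 3 or ssNM-R 2 (0.56, 0.42 and 0.45), and that of Cox1 without mouse 2 (1.00). Cox2, a subunit of the same enzyme as Cox1, had 96.3, 88.0 and 107 in mice and 61561, 61517 and 79037 in ssNM-R (9.42 ± 0.13, adjusted p = 4.27e-08). Cox3 had 95.3, 97.8 and 111 in mice and 63909, 62274 and 84494 in ssNM-R and Atp6, a subunit of ATP synthase, 79.3, 78.3 and 72.4 in mice and 42375, 42683 and 45271 in ssNM-R. In mice, then, Cox2, Cox3 and Atp6 were read far less than in any ssNM-R, and the 3 mice were close to one another. Nd3, Nd4l and Atp8 were likewise low in mice, at 2.01, 3.26 and 2.10 for Nd3, 5.02, 6.52 and 6.29 for Nd4l and 20.1, 10.9 and 13.6 for Atp8, and ranged from 6106 to 6479, 3215 to 5039 and 2671 to 3105 in ssNM-R.

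These 6 genes lie side by side in the mouse mitochondrial genome, and mm9 holds a second copy of them in the nucleus. Of all 32-base windows, 100% of those in Cox2, Cox3, Atp6, Atp8 and Nd4l and 99.1% of those in Nd3 occur again on chromosome 1 between 24619243 and 24622404. For Nd4 the share found elsewhere was 62.8% and for Cox1 62.9% (log2 fold changes 1.39 and 0.99). For Nd1 it was 0%, for Cytb 5.75%, for Nd2 13% and for Nd5 16.3%. Nd6, the gene on the other strand, departs from this order, with 111, 161 and 216 in mice and 6245, 5684 and 9554 in ssNM-R and 6.35%. Nd2 had 15402, 16044 and 17280.1 in mice and 82045, 82699 and 75113 in ssNM-R (2.30 ± 0.15, adjusted p = 8.58e-06). Which reads the aligner placed in both copies is not recorded in the table, and the part of the copy in these differences was not tested.

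Rps12, a protein of the small ribosomal subunit that every cell uses, had 3.01, 9.78 and 5.24 in mice and 31728, 25404 and 25232 in ssNM-R (12.04 ± 0.33, adjusted p = 3.20e-07), the largest difference of its list. In mm9, 97.3% of its 32-base exonic windows occur elsewhere, at 26 places. Genes with a high share went several ways. Rpl3 (90.7%) had 16847, 18105 and 19345 in mice and 17397, 16282 and 16925 in ssNM-R. Rps23 (90.8%) had 9252, 10726 and 11529 in mice and 11894, 10632 and 8961 in ssNM-R. Pgam1 (93.6%), a glycolysis gene, had a mean of 486 in mice and 1763 in ssNM-R (log2 fold change 1.85). The part of repeated sequence in these differences was not tested. Among 938 list members with a mouse gene model, 19 had a share of 50% or more. None of them was in the B cell, T cell, dendritic cell, neutrophil, macrophage or erythroid lists, where the highest shares were 31.0%, 9.25%, 14.8%, 40.5%, 1.93% and 5.13%.

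**Figure D5:**
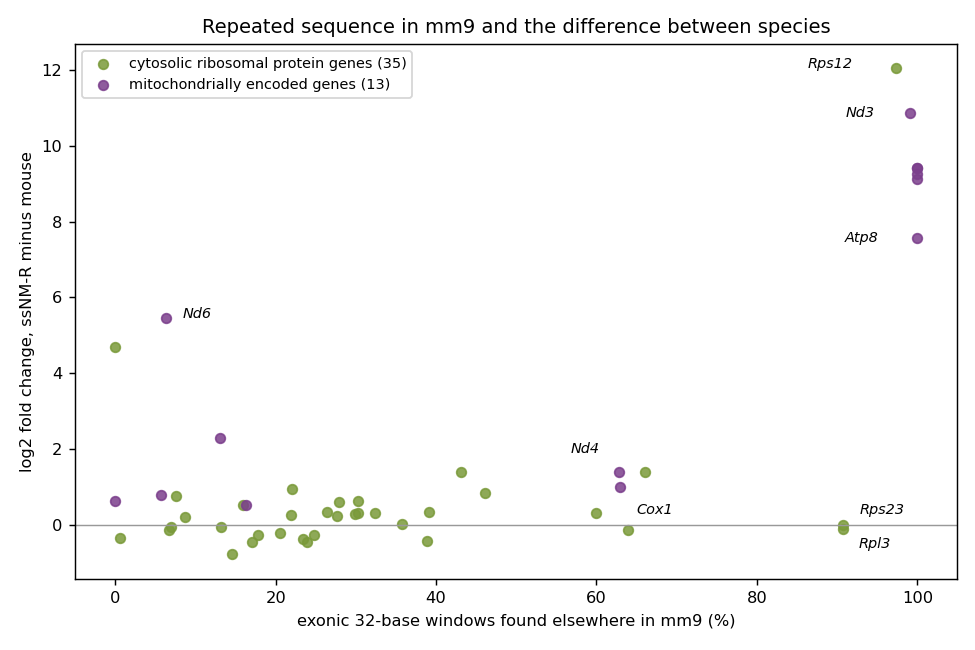
Log2 fold change (ssNM-R minus mouse) against the percentage of 32-base exonic windows of the mouse gene that occur again elsewhere in mm9, for 13 mitochondrially encoded and 35 cytosolic ribosomal protein genes. The 6 mitochondrial genes at 99.1% to 100% and Rps12 at 97.3% lie above 7, whereas Rpl3 and Rps23 at 90.7% and 90.8% lie near 0; unlabelled points at the far right are Cox2, Cox3, Atp6 and Nd4l.

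Many genes were at the floor in 1 species. In all 3 mice 942 genes were at or under 3 reads and were above this in ssNM-R, and the reverse held for 588 genes. Ly6d, a surface protein of B cell precursors, had 3369.5, 3711 and 3707 in mice and 0, 0 and 0 in ssNM-R, at least 1027-fold lower against a floor of 3 reads per library. Ptprcap, which associates with the leukocyte phosphatase CD45, had 1864, 2262 and 2284 in mice and 0, 0 and 0 in ssNM-R, at least 610-fold lower. On the other side, Pvalb, the calcium buffer parvalbumin, had 1.00, 0 and 2.10 in mice and 8121, 7334 and 7709.7 in ssNM-R, at least 2460-fold higher. Dynll1, a light chain of dynein that cells need generally, was read at 0, 1.09 and 0 in mice and 1430.4, 1452 and 1253 in ssNM-R, and Acbd5, a peroxisomal protein, at 751, 713 and 720.4 in mice and 0, 0 and 0 in ssNM-R. In all NM-R spleens of the series Ly6d, Ptprcap and Acbd5 had the same values as another gene, as 319 genes did. Their differences are therefore uncertain, and whether a shared homologue or a lack of reads gave these values was not tested. Of the 1025 genes that carry an NM-R identifier and no symbol, 321 were higher and 492 lower.

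Some genes differed by little. The 95% interval of the log2 fold change lay inside -0.5 to 0.5 for 325 genes with at least 1000 normalized counts in every spleen. The narrowest were those of Pip4k2b, Sart3, Gtf2i, Wdr48, Rnf40, Usf2, Copb1, Cd2bp2, Cand1 and Arhgap1. Of these 10, Sart3, Gtf2i and Cd2bp2 were called higher (0.25, 0.23 and 0.26) and Copb1 and Arhgap1 lower (-0.26 and -0.25), and each of these 5 calls was lost in at least 1 alternative. Pip4k2b, a lipid kinase, had 1697, 1672 and 1656 in mice and 1619, 1668 and 1678 in ssNM-R, with an interval from -0.20 to 0.16. The transcription factor Usf2 had 1557, 1627 and 1632 in mice and 1563, 1519 and 1496 in ssNM-R, with an interval from -0.26 to 0.11. Copb1, a coat protein of Golgi vesicles, had 2090.2, 1975 and 2017 in mice and 1694, 1716 and 1651 in ssNM-R (-0.26 ± 0.08, adjusted p = 0.0161), a call that was lost without mouse 2 (-0.28). The calls of Sart3, Cd2bp2, Gtf2i and Arhgap1 were lost without mouse 2 as well (0.26, 0.25, 0.23 and -0.25), those of Gtf2i and Arhgap1 also without mouse 1 (0.22 and -0.23), and that of Gtf2i without mouse 3 and without ssNM-R 3 (0.24 and 0.23).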

How the data were processed

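Spleen RNA of 3 ssNM-R and 3 mice was sequenced, 1 library per animal. The authors aligned the reads to mm9 (mice) or hetGla2 (NM-R) with STAR 2.5.3a, counted genes with HTSeq 0.10.0, renamed NM-R genes by their mouse homologue and deposited counts divided by DESeq2 size factors over all 9 spleens; these deposited values are a normalized signal, and whole reads were recovered from it (100% of values within 0.001 of a whole number). The strand setting of the counter is not given in the sources used here, and the labels and the methods name different library kits. Every gene has at least 10 reads over the 9 libraries. Per the file header, 1025 of 12946 genes carry an NM-R identifier only, and 10412 a symbol of the mouse annotation.

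Groups were taken from the labels. Values were compared as log2(normalized count + 1) with limma 3.58.1 in R 4.3.3 (empirical Bayes with trend) and Benjamini-Hochberg adjustment over all genes; intervals are 95%. A pseudocount of 1 understates changes of low genes. A difference of more than 1 log2 unit was tested with limma's treat. edgeR 4.0.16 (quasi-likelihood) and DESeq2 1.42.0 were run on the recovered reads as alternatives, beside other pseudocounts, a filter, 3 scalings, a replicate block and leaving out each spleen. The procedure was tested on simulated data: of 100 genes changed by 2 log2 units 100% were recovered, of 100 changed by 1 log2 unit 37%, with 1 false call among 12746 unchanged genes. The simulation gave every gene the same dispersion and changed far fewer genes than the 75.3% called here. These rates are therefore not the rates of this comparison.

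The members and gene lists were chosen with earlier results of these data known. Genes were named by rule: the 15 highest and 15 lowest log2 fold changes among genes whose higher group had a mean of at least 1000 and whose lower group had no spleen under 10; in each list the highest, the lowest and the best read member with a group mean of at least 100; the 10 narrowest intervals inside -0.5 to 0.5; and markers of spleen and its neighbours. Further list members, the mitochondrially encoded genes and those at the floor were chosen after their values were seen. Some members of the lists are not reported here by name. Exon overlap, repeated 32-base windows and upstream motifs were computed on mm9 with GENCODE vM1, for mouse gene models only. Replicates were separate animals; no 2 libraries agreed within sampling noise.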

Additional observations from a re-analysis of the deposited data

How the results depend on the processing

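The 4 counts of genes higher or lower, with and without the 1 log2 unit, stayed within 1.5 times their value under all 18 alternatives. Leaving out 1 spleen gave 4450 to 4885 genes higher and 4418 to 4937 lower, edgeR gave 4899 and 4789, and DESeq2 gave 4797 and 4677. The deviations of the same-numbered spleens correlated at -0.002 (number 2) and -0.010 (number 3), and those of differently numbered spleens at -0.069 to 0.076. Only numbers 2 and 3 occur in both groups, too few to tell whether the replicate numbers of the labels mark a shared batch. With a replicate block 4621 genes were higher and 4658 lower. Scaling to the same upper quartile moved the median of all genes from 0.02 to 0.12, with 5206 genes higher and 4571 lower. Of 281 genes followed through the alternatives, 1 that was called in the main fit or the alternative changed direction: Nd5 under quantile normalization, at -0.0234. Sign changes of genes called in neither fit were not counted. The medians of 46 lists were followed through the 18 alternatives. Counted by pairs of list and alternative, 81 medians moved by more than and 746 by less than the spread between spleens. Among the medians that changed sign were the neutrophil median without ssNM-R 2 (0.03), the mesothelial without ssNM-R 6 (-0.35) and the antioxidant without mouse 3 (0.10). The causes were not tested. Folds of genes near the floor of 3 reads depend on depth, which ranged from 7815326 to 18219644 reads.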
